A study of Mus musculus with 4 samples.

Results

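A set of 10 transcription factor genes of the primitive streak and early mesoderm was followed through retinoic acid treatment of mouse embryonic stem cells. They were taken by symbol from the 23420 genes of each count table, and all 10 were present: T, Evx1, Mixl1, Eomes, Mesp1, Mesp2, Tbx6, Msgn1, Meox1 and Hand1. RNA sequencing covered 4 libraries of wild type E14 cells, a mouse embryonic stem cell line grown without feeder cells on gelatin in serum with leukemia inhibitory factor (LIF). The treated group held 2 libraries taken 24 h after addition of 1 µM ATRA (all-trans retinoic acid, which binds and activates the RAR nuclear receptors), and the control group 2 libraries at 0 h. The vehicle named in the protocol was dimethyl sulfoxide, and whether the 0 h cells received it, or whether LIF stayed in the medium during treatment, is not stated. ATRA and 24 h of culture vary together in this design and cannot be told apart, and the labels leave unstated whether replicates are separate cultures, so the p-values below speak only for the spread among these 4 libraries, which may be technical. All libraries come from 1 cell line.

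The primitive streak is the site where epiblast cells of the mouse embryo leave the epithelium and become mesoderm and endoderm. Wnt, Nodal, BMP and FGF signals induce T, Eomes and Mixl1 there. Later factors divide the new mesoderm: Tbx6, Msgn1, Mesp2 and Meox1 act in the paraxial mesoderm that forms somites, Mesp1 marks the first cardiac and cranial mesoderm, and Hand1 belongs to lateral and extraembryonic mesoderm. In the embryo, retinoic acid made by the somites opposes FGF and Wnt signalling at the streak and tailbud. In serum and LIF, some stem cells of a culture can express T.

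Counts in genes came to 13337972 and 11086233 in the ATRA libraries and to 31005634 and 21484812 in the control libraries. A limit of 3 counts, the most that a count of 0 allows, equalled 0.212 and 0.309 CPM (counts scaled to the library total) in the ATRA libraries and 0.0940 and 0.134 CPM in the control libraries. Such limits, and the counting intervals below, cover counting error only. The ATRA libraries were less alike than the controls, with a Spearman rho across genes of 0.957 between the ATRA libraries and 0.995 between the controls. Rarb, the receptor gene that retinoic acid induces directly, had 33.9 and 43.4 CPM with ATRA, against 0.125 and 0.223 CPM at 0 h. Cyp26a1, the main retinoic acid-degrading hydroxylase, had 202 and 331 CPM with ATRA, against 8.21 and 9.09 CPM at 0 h; by edgeR both rose, with log2 fold changes of 7.79 and 4.94 (adjusted p = 0.0229 and 0.0266). Stem cell markers summed to between 1594 and 1896 CPM with ATRA and to 4067 and 4069 CPM at 0 h, and none of the 12 was under 1 CPM in every library.

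The summed level of the 10 genes was 23.3 and 30.7 CPM with ATRA, against 190 and 162 CPM at 0 h. T made up 34.7% and 38.6% of that sum in the ATRA libraries and 77.6% and 75.0% in the controls. Without T, the sum was 15.2 and 18.9 CPM with ATRA and 42.5 and 40.7 CPM at 0 h. These sums are not corrected for the trend along GC content described below. In corrected CPM Eomes, the most abundant after T, overlapped between groups (7.13 and 14.7 with ATRA, 15.3 and 14.4 at 0 h). Mixl1, the next, did not overlap (2.49 and 4.82 with ATRA, 13.8 and 13.7 at 0 h). T itself fell in the test across all genes. Evx1, Msgn1 and Mixl1 also fell, and Meox1 rose, once the libraries were corrected for a trend along transcript GC content. Of these, Mixl1 alone was abundant enough to enter the fit of that trend. Eomes, Tbx6, Hand1 and Mesp2 did not pass in either fit, and Mesp1 had too few counts to be tested. In bulk RNA, fewer cells that express a gene and less RNA per cell cannot be told apart.

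**Figure D1:**
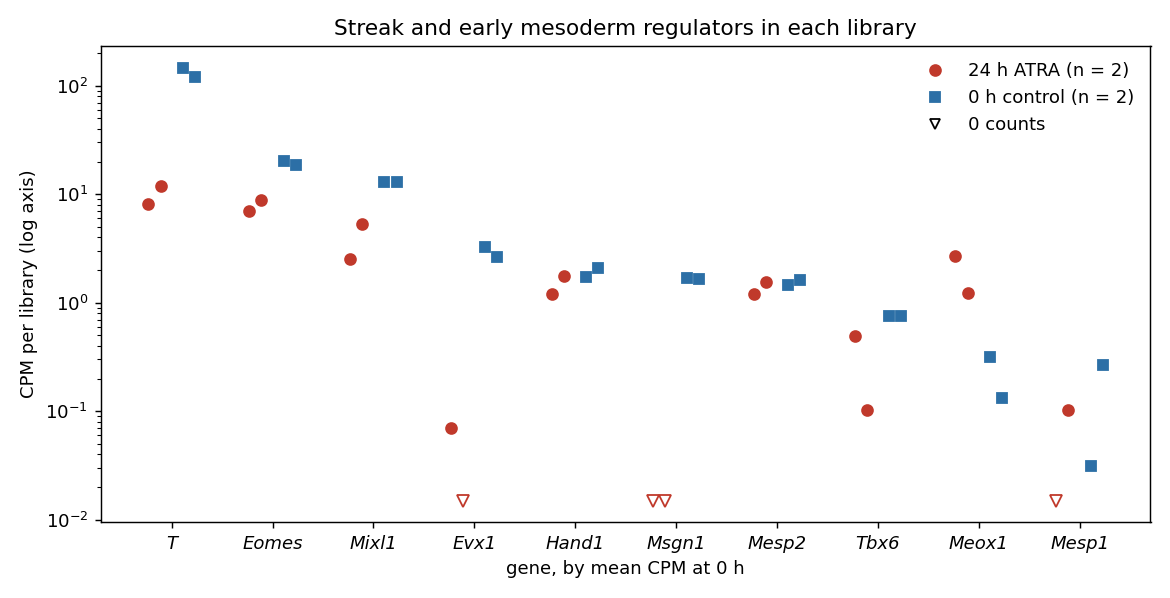
CPM of each gene in each library on a log axis, with 24 h ATRA libraries as circles left of the 0 h control libraries as squares, and a triangle at the foot of the plot for a count of 0. T lies at 8.06 and 11.9 CPM with ATRA and at 147 and 122 CPM at 0 h, and Meox1 is the gene whose ATRA libraries both lie above both controls.

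Genes were tested with the quasi-likelihood method of edgeR, p-values were adjusted over all tested genes by Benjamini-Hochberg, and a gene is called changed where its adjusted p is under 0.05. Of 14256 genes tested, 0.603% were called, 0.168% lower and 0.435% higher. Across the 14145 tested genes with a GC value, fold changes were lower at higher transcript GC content (Spearman's rho −0.75, with genes as points that are not independent). A correction of this trend in each library, already used in earlier work on these data, left a rho of −0.00021, which the correction is built to do. The biological coefficient of variation was 15.4% with it and 28.3% without. The correction removes any GC-related difference between libraries, whatever its source. With it, 16.7% of genes were called, 7.85% lower and 8.86% higher. The median log2 fold change of all genes was −0.02 uncorrected and 0.01 corrected.

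Of the 10 genes, 9 passed the filter on low counts. Uncorrected, edgeR called 1 of the 9 lower and 0 higher, against 5 lower and 1 higher at an unadjusted p under 0.05 and the same numbers by DESeq2. Over all genes, 40.1% had an unadjusted p under 0.05 (21.9% lower and 18.2% higher), and DESeq2 called 30.5% (18% lower and 12.5% higher), so counts by these looser rules, here and for the lists below, stand against high shares of all genes. Corrected, 4 were called lower and 1 higher, against 7.85% and 8.86% of all genes. With either control library left out of the corrected fit, Evx1, Mixl1, Msgn1 and Meox1 no longer passed, and Msgn1 did not pass without ATRA replicate 1 either. Both ATRA libraries lay below both controls for 6 of the 9, against 41.5% of all genes tested, and above them for 1 of the 9, against 40% of all genes. In corrected CPM these counts were 4 of 9 below, against 34.8% of all genes, and 2 of 9 above, against 35.5%. The median log2 fold change of the 9 was −1.31 uncorrected (also with Msgn1 set at its bound given below) and −0.51 corrected. Fold changes were below 0 for 8 of the 9 uncorrected, against 50.5% of all genes. Corrected, they were below 0 for 5 of the 9, near the 48.8% of all genes.

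The sequences before the start sites of T, Evx1 and Msgn1 are shown because these members had the lowest fitted fold changes of the 10. Each is the 250 bases before the RefSeq start site, 5′ to 3′ on the gene's strand, in GRCm38.p6. Capitals mark exact matches, on either strand, to AGGTGT, a T-box half-site, or to CTTTGA, a core that TCF and LEF proteins bind. T is at chr17:8434173-8434422, plus strand, Evx1 at chr6:52313248-52313497, plus strand, and Msgn1 at chr12:11208949-11209198, minus strand. The Msgn1 window overlaps the 5′ end of its GENCODE gene, which starts further upstream.
T: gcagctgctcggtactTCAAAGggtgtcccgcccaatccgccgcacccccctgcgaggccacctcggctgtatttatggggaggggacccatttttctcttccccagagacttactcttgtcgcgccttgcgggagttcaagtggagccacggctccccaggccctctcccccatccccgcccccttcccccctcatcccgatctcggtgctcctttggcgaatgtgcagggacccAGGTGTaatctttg
Evx1: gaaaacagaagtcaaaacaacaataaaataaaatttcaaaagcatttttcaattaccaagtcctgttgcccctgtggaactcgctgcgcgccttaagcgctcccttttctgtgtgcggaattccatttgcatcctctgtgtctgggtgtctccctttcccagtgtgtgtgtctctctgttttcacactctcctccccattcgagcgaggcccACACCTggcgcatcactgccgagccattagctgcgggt
Msgn1: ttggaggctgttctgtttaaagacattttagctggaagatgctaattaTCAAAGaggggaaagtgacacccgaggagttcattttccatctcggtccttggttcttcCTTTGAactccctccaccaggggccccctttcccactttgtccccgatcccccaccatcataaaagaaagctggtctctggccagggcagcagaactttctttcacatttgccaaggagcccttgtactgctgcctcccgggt

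Windows of this kind were matched for 7 of the 10 members (all but Mixl1, Meox1 and Hand1). The T window held a T-box half-site from 14 to 9 bases before the start and a TCF/LEF core on the opposite strand from 234 to 229 bases before it. The Evx1 window held a T-box half-site on the opposite strand from 38 to 33 bases before the start, and the Msgn1 window a pair of TCF/LEF cores. Matches to AGGTGT were found in 3 of the 7 windows (T, Evx1 and Mesp1) and in 11.8% of all 32851 RefSeq windows. Matches to CTTTGA were found in 3 of the 7 (T, Mesp1 and Msgn1) and in 13.8% of all windows. The Mesp1 window overlaps its GENCODE gene, which starts further upstream, and the CTTTGA matches of Mesp1 lie inside that gene. The nuclear receptor half-site AGGTCA was in 0 of the 7 and in 14.0% of all windows, and TATAAA was in 1 of the 7, that of Tbx6, and in 12.4%. No matches overlapped in the windows of the 7 members. A match of this kind is a description of letters, not a binding site.

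T, also called Brachyury, is the T-box factor that defines the streak and is needed for posterior mesoderm and notochord. It lies on chromosome 17 from 8434423 to 8442496, plus strand (GENCODE M21, GRCm38), and its transcript has a GC content of 52.2%. It had 114 and 115 counts in the ATRA libraries, against 4694 and 2732 in the controls. In CPM this was 8.06 and 11.9 with ATRA and 147 and 122 at 0 h, with means of 9.96 ± 2.69 and 134 ± 18.0 CPM (SD, n = 2 each). The groups were far apart compared with the spread within either. T fell, and its fitted log2 fold change was −3.76 ± 0.34 (SE, edgeR adjusted p = 0.0295). After GC correction the change was −3.36 ± 0.32 (edgeR adjusted p = 0.00864). It ranked 23 by smallest p among the 14256 genes uncorrected and 134 corrected. The remaining T was still the highest of the 10 genes in the ATRA libraries.

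Evx1, an even-skipped type homeobox gene of the posterior streak, lies on chromosome 6 from 52313498 to 52318378, plus strand. It had 1 and 0 counts with ATRA, against 104 and 59 at 0 h. The controls stood at 3.26 and 2.63 CPM, and both ATRA libraries lay under the 3-count limit of their depth. Over each group this made Evx1 71.5-fold lower with ATRA, with a 95% counting interval from 12.7 to 2841. Uncorrected, the fitted log2 fold change was −5.95 ± 0.79 (SE, edgeR adjusted p = 0.0525). Evx1 passed with the bias-adjusted quasi-likelihood method of the same edgeR version (adjusted p = 0.0343), which called 161 genes in place of 86. It also passed with RLE factors for library size (edgeR adjusted p = 0.0391) and by DESeq2 (adjusted p = 0.00157). The uncorrected call of Evx1 therefore depends on the choice of fit. After GC correction Evx1 fell, at −4.33 ± 0.75 on the log2 scale (edgeR adjusted p = 0.0257). Its transcript GC content is 61.2%. The antisense gene Evx1os overlaps it by 1335 bases of gene span, introns included. The strand setting of the counting is not given, so reads from the overlap cannot be assigned to either gene.

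Msgn1 (mesogenin 1), a bHLH factor that drives presomitic mesoderm and is a known target of Wnt signalling and Tbx6, lies on chromosome 12 from 11208360 to 11208972, minus strand. It had 0 counts in both ATRA libraries, against 54 and 37 at 0 h, or 1.69 and 1.65 CPM. With ATRA set at a limit of 3 counts over the group, the bound was 13.3-fold lower. The exact 95% counting interval of the ratio, which is wider, starts at 10.6-fold lower. Both are uncorrected for GC content. Corrected CPM of Msgn1 at 0 h were 0.809 and 0.965, and no bound was computed with the correction. The fitted values depend on the prior count and are no measure of size. Their edgeR adjusted p was 0.0680 uncorrected and 0.0413 after GC correction.

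Mixl1, a paired-like homeobox gene of the streak needed for mesoderm and endoderm formation, lies on chromosome 1 from 180693043 to 180697034, minus strand. It had 36 and 52 counts with ATRA, against 411 and 291 at 0 h. In CPM this was 2.54 and 5.36 with ATRA and 12.9 and 13.0 at 0 h (means 3.95 ± 1.99 and 12.9 ± 0.0558, SD, n = 2 each). The controls were nearly equal, while the ATRA libraries differed from each other by more than the controls did. Its log2 fold change was −1.72 ± 0.45 (edgeR adjusted p = 0.0817), and after GC correction Mixl1 fell, at −1.94 ± 0.33 (edgeR adjusted p = 0.0254). Its transcript has the lowest GC content of the 10, at 48.5%, and it is the one tested member whose lower value moved further from 0 with the correction.

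Eomes, a T-box factor of the streak that is required for definitive endoderm and also works in trophoblast, lies on chromosome 9 from 118478212 to 118486132, plus strand. Its libraries had 99 and 85 counts with ATRA, against 650 and 417 at 0 h. This gave 7.0 and 8.77 CPM with ATRA and 20.4 and 18.6 CPM at 0 h, so the groups did not overlap. The log2 fold change was −1.31 ± 0.33 (edgeR adjusted p = 0.0798), and −0.51 ± 0.35 after GC correction (edgeR adjusted p = 0.327). Corrected CPM were 7.13 and 14.7 with ATRA and 15.3 and 14.4 at 0 h, and these overlapped. The antisense gene Gm33460 overlaps Eomes by 574 bases of gene span, with the same limit as for Evx1.

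**Figure D2:**
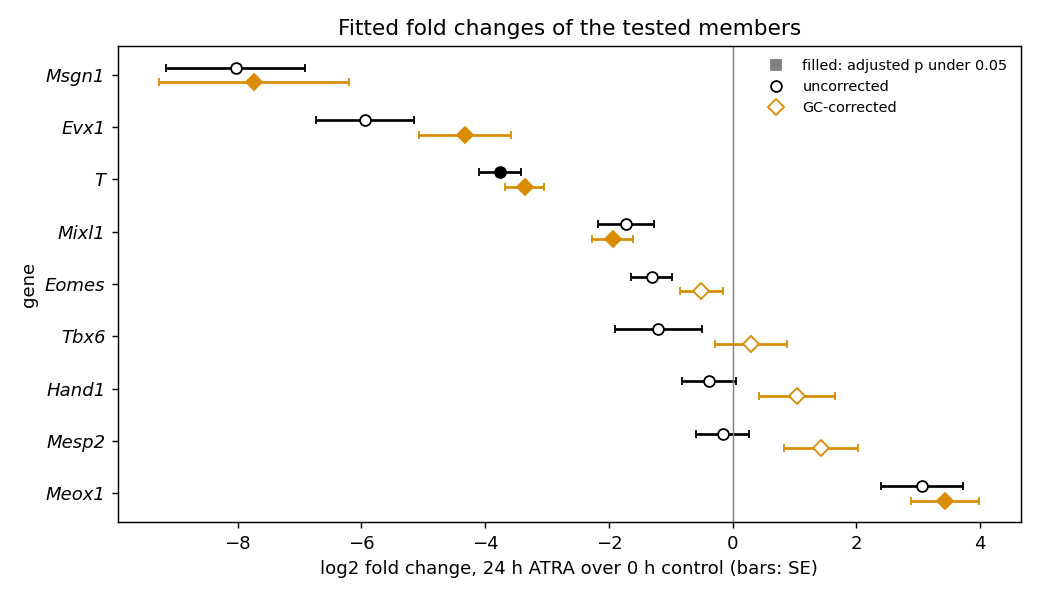
Log2 fold change, 24 h ATRA over 0 h control, of the 9 tested genes, with SE bars. Circles are uncorrected and diamonds GC-corrected, and filled symbols have an adjusted p under 0.05: T in both, and Msgn1, Evx1, Mixl1 and Meox1 after correction. The value of Msgn1 rests on a count of 0 with ATRA and depends on the prior count.

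Meox1, a homeobox gene of the somites, ran the other way. Its position is chromosome 11, 101877510 to 101894374 on the minus strand. The antisense gene Gm11551 overlaps Meox1 by 4970 bases of gene span, and reads from the overlap cannot be assigned to either gene. Meox1 ran this way on the counts that follow. It had 38 and 12 counts with ATRA, against 10 and 3 at 0 h, although the controls were sequenced more deeply. In CPM this was 2.69 and 1.24 with ATRA and 0.313 and 0.134 at 0 h. Over each group it was 8.77-fold higher with ATRA, with a 95% counting interval from 4.69 to 17.6. Single libraries moved its fitted log2 fold change to 2.36 without ATRA replicate 1 and to 3.80 without control replicate 1. The log2 fold change was 3.07 ± 0.66 (edgeR adjusted p = 0.0771), and Meox1 rose after GC correction, by 3.44 ± 0.55 (edgeR adjusted p = 0.0220). Both ATRA libraries lay above both controls, and the levels were low in all 4 libraries.

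The other paraxial factors were low in both groups. Tbx6, a T-box factor that commits cells to paraxial mesoderm, lies on chromosome 7 from 126781483 to 126785560, plus strand. It had 7 and 1 counts with ATRA, against 24 and 17 at 0 h. Its levels were 0.495 and 0.103 CPM with ATRA and 0.752 and 0.757 CPM at 0 h, with both ATRA libraries below both controls. In corrected CPM the groups overlapped. Its log2 fold change was −1.20 ± 0.70 uncorrected and 0.30 ± 0.58 corrected, with edgeR adjusted p of 0.227 and 0.731. Over each group Tbx6 was 2.25-fold lower with ATRA, with a 95% counting interval from 1.04 to 5.55 on 8 and 41 reads, so the difference did not pass the test over libraries although counting error alone does not cover it.

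Mesp2, a bHLH factor that sets the borders between somites, lies on chromosome 7 from 79810727 to 79813439, plus strand. It had 17 and 15 counts with ATRA, against 46 and 36 at 0 h, and 1.20 and 1.55 CPM with ATRA against 1.44 and 1.60 CPM at 0 h. The groups overlapped in these uncorrected CPM. Its log2 fold change was −0.16 ± 0.43 uncorrected (edgeR adjusted p = 0.783) and 1.43 ± 0.60 corrected (edgeR adjusted p = 0.146). Corrected CPM of Mesp2 were 1.36 and 4.22 with ATRA and 0.761 and 0.980 at 0 h, with both ATRA libraries above both controls. Mesp1, a related bHLH factor of cardiac mesoderm, lies 16938 bases away, from 79792241 to 79793788 on the minus strand. It had 0 and 1 counts with ATRA, against 1 and 6 at 0 h. Its ratio of ATRA to control over each group was 0.326, with a 95% counting interval from 0.00723 to 2.53, so a difference was not detectable at this depth.

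Hand1, a bHLH factor of lateral and extraembryonic mesoderm and of trophoblast, lies on chromosome 11 from 57828705 to 57832818, minus strand. Its libraries held 17 and 17 counts with ATRA, against 55 and 47 at 0 h, or 1.20 and 1.75 CPM with ATRA and 1.72 and 2.09 CPM at 0 h. The groups overlapped, the log2 fold change was −0.38 ± 0.44 (edgeR adjusted p = 0.509), and after GC correction it was 1.04 ± 0.62 (edgeR adjusted p = 0.264). Tbx6, Mesp2 and Hand1, whose transcripts have GC contents of 59.1%, 58.2% and 57.0%, were the tested members whose sign differed between the fits.

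**Figure D3:**
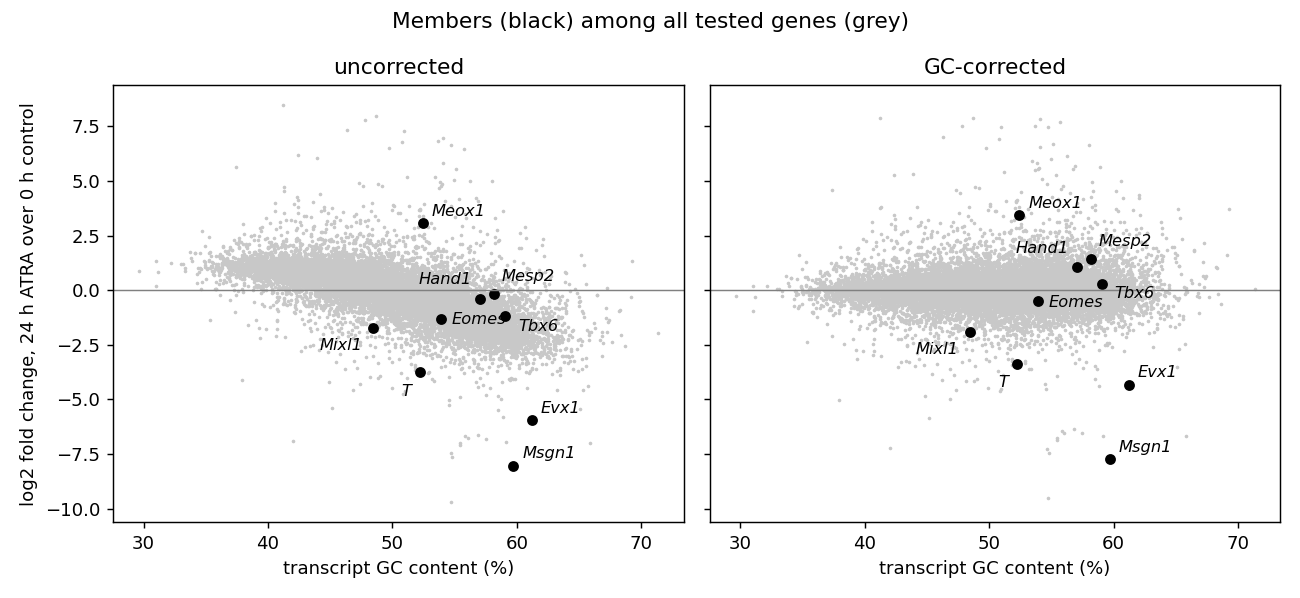
Log2 fold change, 24 h ATRA over 0 h control, against transcript GC content in %, uncorrected on the left and GC-corrected on the right. Grey points are the 14145 tested genes with a GC value and black points the 9 tested members. The grey band slopes down to the right on the left panel and is level on the right one, and Tbx6, Mesp2 and Hand1 lie above 0 on the right and below it on the left.

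Per length of transcript, T was the most abundant of the 10 genes in both groups. It stood at 4.87 ± 1.31 CPM per kb with ATRA and 65.7 ± 8.79 CPM per kb at 0 h (SD, n = 2 each). At 0 h, Mixl1 (5.63 ± 0.0243 CPM per kb) and Eomes (5.47 ± 0.358) came next and did not differ beyond their spread. Msgn1 followed at 2.72 ± 0.0514 CPM per kb, and then Evx1 (1.02 ± 0.155) and Hand1 (1.00 ± 0.137), which again did not differ beyond their spread. Mesp2 (0.783 ± 0.0588), Tbx6 (0.437 ± 0.00202), Mesp1 (0.117 ± 0.131) and Meox1 (0.100 ± 0.0571) completed the order, the last pair within their spread. With ATRA the order after T was Eomes (2.21 ± 0.351 CPM per kb), Mixl1 (1.72 ± 0.869), Meox1 (0.881 ± 0.460), Hand1 (0.776 ± 0.205) and Mesp2 (0.707 ± 0.126), whose neighbours did not differ beyond their spread. Tbx6 (0.173 ± 0.16), Mesp1 (0.0404 ± 0.0572), Evx1 (0.0123 ± 0.0174) and Msgn1 (0) were lowest. Msgn1 was at 0 counts with ATRA, so its place among these 4 is not fixed. These levels depend on 1 annotated transcript length per gene.

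By the distance used, the genes nearest T over the 4 libraries were Ctsw, Enpp2 and Msgn1. Their log2 CPM, centred on each gene's mean, differed from T's by a root mean square of 0.186 for Ctsw, 0.214 for Enpp2 and 0.277 for Msgn1. The ATRA values of Ctsw and Msgn1 are at or near 0 counts, so their distances are set largely by the prior count of 2, and the ranking holds no more than that. Ctsw had 0.0516 CPM with ATRA and 1.88 CPM at 0 h on average, and Enpp2 1.56 CPM with ATRA and 28.7 CPM at 0 h on average. The measure covers 4 libraries in 2 groups, so it rests largely on the difference between the groups.

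Among 13 signalling genes that act at the streak, edgeR called 1 lower and 0 higher uncorrected (6 lower and 0 higher at an unadjusted p under 0.05, where all genes gave 40.1%, and 6 and 0 by DESeq2, where they gave 30.5%). After GC correction it called 7 lower and 1 higher. All genes gave 0.168% lower and 0.435% higher uncorrected, and 7.85% lower and 8.86% higher corrected. The median log2 fold change was −0.96 uncorrected and −1.06 corrected. Bmp4, the ligand that the embryo uses to induce posterior streak and mesoderm, fell to 3.04 and 2.68 CPM with ATRA, against 23.4 and 18.7 CPM at 0 h (log2 fold change −2.87 ± 0.36, edgeR adjusted p = 0.0457, and −2.45 after GC correction). Tdgf1, the Nodal co-receptor, had 172 and 264 CPM with ATRA and 427 and 421 CPM at 0 h (log2 fold change −0.96, edgeR adjusted p = 0.0940, and −1.56 with 0.00408 corrected). Lefty2, a Nodal inhibitor, had 136 and 153 CPM with ATRA and 123 and 110 CPM at 0 h (log2 fold change 0.31, edgeR adjusted p = 0.368). Wnt3, the ligand needed to form the streak, was picked out after its values were seen and had 9.47 and 4.95 CPM with ATRA and 40.7 and 28.7 CPM at 0 h. Its log2 fold change was −2.26 (edgeR adjusted p = 0.0734), and −1.82 (edgeR adjusted p = 0.0179) corrected.

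Of 16 further transcription factor genes of the streak and tailbud, 14 were tested, with 0 called by edgeR uncorrected, against 4 lower and 6 higher at an unadjusted p under 0.05 (40.1% of all genes) and 4 and 4 by DESeq2 (30.5% of all genes). After GC correction edgeR called 5 higher and 0 lower (Sp8, Cdx1, Cdx2, Cdx4 and Zeb2), against 8.86% and 7.85% of all genes. Their median log2 fold change was 0.74 uncorrected and 1.05 corrected, above 0 where that of the 9 tested members was below it. Zeb2, a repressor of the epithelial state that also acts in neural cells, had 49.3 and 81.1 CPM with ATRA and 15.2 and 14.8 CPM at 0 h (log2 fold change 2.12, edgeR adjusted p = 0.0708, and 1.15 with 0.0105 corrected). Evx2, the paralog of Evx1, had 0 counts in all 4 libraries.

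Segmentation genes numbered 16, of which 11 were tested. Uncorrected, edgeR called 0 (4 lower and 1 higher at an unadjusted p under 0.05, 2 and 1 by DESeq2), and after correction 1 in each direction. The counts of 11 at an unadjusted p and by DESeq2 lie near the shares of all genes, 40.1% and 30.5%. Corrected calls also lie near the shares of all genes, 7.85% lower and 8.86% higher. Epha4, a receptor kinase of somite borders, had 24.5 and 34.0 CPM with ATRA and 52.2 and 53.9 CPM at 0 h (log2 fold change −0.86, or −1.40 corrected with an edgeR adjusted p of 0.00737). Tcf15, a bHLH gene of somites that stem cells also express, had 4.74 and 1.65 CPM with ATRA and 15.0 and 12.2 CPM at 0 h. Its log2 fold change was −2.06 uncorrected and −0.07 corrected. Foxc1, the gene called higher after correction, had 6.79 and 16.6 CPM with ATRA and 1.13 and 1.25 CPM at 0 h. Its log2 fold change was 3.29 uncorrected (edgeR adjusted p = 0.0708) and 4.75 corrected (edgeR adjusted p = 0.0278).

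Lateral and cardiac mesoderm genes numbered 15, with 11 tested. Uncorrected, edgeR called 0 (1 lower and 4 higher at an unadjusted p under 0.05, 1 and 2 by DESeq2, again near the 40.1% and 30.5% of all genes), and after correction 4 higher and 1 lower. All genes gave 8.86% higher and 7.85% lower after correction. Gata4 and Gata6, among the 4 called higher, are also markers of extraembryonic endoderm. Tbx20, a T-box gene of the heart, had 4.24 and 6.70 CPM with ATRA and 10.9 and 8.91 CPM at 0 h (corrected log2 fold change −1.72, edgeR adjusted p = 0.0149). Twist1, a bHLH gene of mesenchyme, had 4.31 and 6.81 CPM with ATRA and 4.26 and 3.07 CPM at 0 h. Of 14 T-box genes outside the 10 members, of which Tbx5 and Tbx20 are also in the lateral and cardiac list, 6 were tested. Uncorrected, edgeR called 0 (1 lower and 0 higher at an unadjusted p under 0.05, against 40.1% of all genes, and 0 by DESeq2, against 30.5%). After correction it called Tbx20 lower, as above, and Tbx3 higher, against 7.85% lower and 8.86% higher of all genes. The most abundant was Mga, a MYC network factor with a T-box domain, at 358 and 604 CPM with ATRA and 322 and 306 CPM at 0 h. Tbx3, which stem cells express, had 30.7 and 33.6 CPM with ATRA and 22.5 and 23.4 CPM at 0 h (corrected log2 fold change 1.38, edgeR adjusted p = 0.0413).

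**Figure D4:**
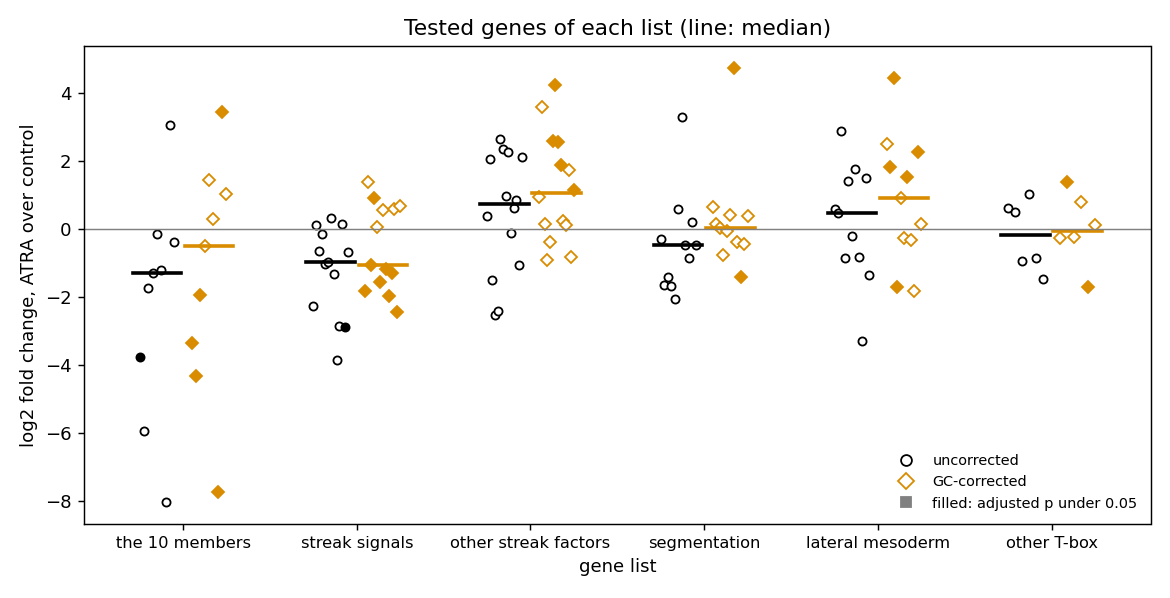
Log2 fold change, ATRA over control, of the tested genes of 6 lists, uncorrected as circles and GC-corrected as diamonds, filled where the adjusted p is under 0.05, with a line at each median. The medians of the members (−1.31, or −0.51 corrected) and of the streak signals (−0.96, or −1.06) lie below 0, and that of the other streak factors (0.74, or 1.05) above it.

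Neural progenitor markers summed to between 281 and 390 CPM with ATRA and between 228 and 271 CPM at 0 h. Of 6 tested, edgeR called 1 higher uncorrected and 3 after correction. All genes gave 0.435% higher uncorrected and 8.86% corrected, here and for the markers that follow. Sox1, a neural plate marker, rose to 23.8 and 30.7 CPM with ATRA, against 1.60 and 1.56 CPM at 0 h (log2 fold change 4.10, edgeR adjusted p = 0.0281), while Nes had 214 and 295 CPM with ATRA and 248 and 207 CPM at 0 h and Pax6 39.9 and 62.0 CPM with ATRA and 19.3 and 18.0 CPM at 0 h. After correction 4 of 5 tested extraembryonic endoderm markers, 2 of 6 trophoblast markers and 2 of 7 fibroblast markers were called higher, and 0 of each uncorrected (unadjusted p under 0.05: 4, 3 and 3; DESeq2: 3, 1 and 3, in either direction, where 40.1% and 30.5% of all genes passed). Extraembryonic endoderm markers summed to between 53.2 and 80.1 CPM with ATRA and between 25.7 and 26.2 CPM at 0 h. Of the 9 listed, 4 were under 1 CPM in all libraries, and of those Ttr was at 0. Dab2 had 42.3 and 66.4 CPM with ATRA and 21.7 and 22.3 CPM at 0 h. Gata6 had 2.33 and 6.19 CPM with ATRA and 0.658 and 0.445 CPM at 0 h. Unlike these, Gata4 overlapped between groups in uncorrected CPM (3.89 and 1.55 with ATRA, 1.91 and 2.05 at 0 h). Trophoblast markers, relevant to Eomes and Hand1, summed to between 61.3 and 62.6 CPM with ATRA and between 51.4 and 51.5 CPM at 0 h. Of that list Tpbpa was at 0 in all libraries, Tfap2c had 32.2 and 34.7 CPM with ATRA and 29.6 and 30.1 CPM at 0 h, and Cdx2 19.5 and 18.0 CPM with ATRA and 10.7 and 8.28 CPM at 0 h. Cdx2 is called higher after correction in this list and among the streak factors above. Fibroblast markers summed to between 115 and 120 CPM with ATRA and between 165 and 226 CPM at 0 h. Col1a1 accounted for 40.1 and 24.1 CPM of this with ATRA and 141 and 91.9 CPM at 0 h, and Col1a2 for 44.1 and 51.3 CPM with ATRA and 53.0 and 44.5 CPM at 0 h. In corrected CPM Col1a1 overlapped between groups (log2 fold change −0.15, edgeR adjusted p = 0.658). The 2 fibroblast markers called higher after correction were Dcn (1.89, edgeR adjusted p = 0.0399) and Pdgfrb (1.04, edgeR adjusted p = 0.0271). Of the 12 stem cell markers, 1 was called lower uncorrected and 8 after correction, against 0.168% and 7.85% of all genes. Tdgf1 and Fgf4, among the 8, are also among the streak signals called lower after correction. Utf1 fell to 9.75 and 6.81 CPM with ATRA, against 141 and 105 CPM at 0 h (log2 fold change −3.89, edgeR adjusted p = 0.0296, and −1.76 with 0.0198 corrected). Pou5f1 had 307 and 106 CPM with ATRA and 1279 and 1251 CPM at 0 h (−2.61, edgeR adjusted p = 0.0763, and −1.27 with 0.0102 corrected), and Dppa5a had 642 and 299 CPM with ATRA and 445 and 487 CPM at 0 h. The part of any of these cells in the values of the 10 genes was not tested.

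**Figure D5:**
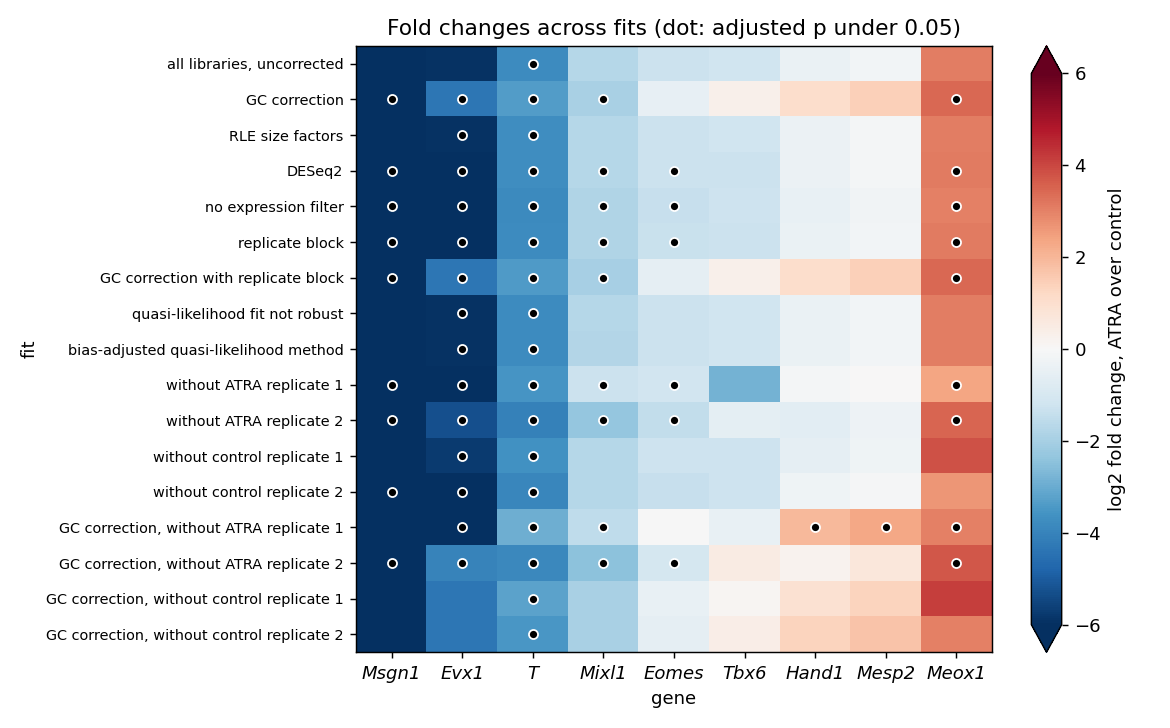
Log2 fold change of the 9 tested genes (columns) in each of 17 fits (rows), with blue for lower and red for higher with ATRA, colours held at the ends of the scale beyond it, and a dot where the adjusted p is under 0.05. T carries a dot in all 17 fits, with values from −4.05 to −2.91, and Tbx6 in 0.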

How the data were processed

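RNA was sequenced from 4 libraries. Trizol extraction and Illumina's standard library preparation were used, per the labels' protocols. The authors deposited raw counts of reads for each gene symbol, with 5 summary lines per table that were left out here; reads in no gene were 63.4% to 66.2% of each table. HTSeq 0.6.0, TopHat2 2.0.7, Cuffdiff 2.0.2, Cufflinks 2.0.2 and the build mm10 are named, without roles, per the submitters' processing notes; the annotation and the strand setting are not given. The titles give 1 µM ATRA and a treatment label a millimolar unit; the titles were followed.

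The counts were fitted in R 4.3.3 using edgeR 4.0.16 (expression filter by group, TMM factors, robust quasi-likelihood fit, Benjamini-Hochberg adjustment over all tested genes, threshold 0.05). CPM use TMM-scaled library sizes, and each SE is the absolute log2 fold change over the root of its F value. For the GC correction, the deviation of log2 CPM (prior count 2) from the gene mean was fitted per library against GC content of the longest coding transcript (GENCODE M21, GRCm38) by rlm of MASS 7.3.60.0.1 on a spline basis (ns, df 5) over genes with mean log2 CPM above 1, and entered as offsets; 99.2% of tested genes had a value. Group ratios use TMM-scaled library sizes without the GC correction, and exact conditional binomial intervals at 95%. Symbols matched GENCODE directly for 21777 genes and by an older symbol for 1260. Promoter windows are RefSeq's. The scripts were tested on simulated counts. Replicates differed by more than sampling noise (chi-square per degree of freedom 62.9 for the ATRA libraries and 8.34 for the controls).

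The members and lists were chosen with earlier results of these data known. All members are named; from each other list, up to 4 called genes with the smallest p or, with fewer than 2 called, the 2 most abundant; the 3 genes nearest T in log2 CPM; and Rarb and Cyp26a1. Of these, 1 gene that this rule names is not reported here. Alternatives were RLE factors, DESeq2 1.42.0, no filter, a replicate block, the GC correction, single libraries left out, other pseudocounts for members' folds and, added after seeing the data, a fit that is not robust and edgeR's bias-adjusted quasi-likelihood method (legacy=FALSE; the default of this version was used otherwise).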

Additional observations from a re-analysis of the deposited data

How the results depend on the processing

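T was called lower in all 17 fits, with adjusted p between 8.03e-19 and 0.0482 (the last without control replicate 1 and GC-corrected). The same 17 fits called Evx1 in 14, Mixl1, Msgn1 and Meox1 in 9 each, Eomes in 6, Mesp2 and Hand1 in 1 each and Tbx6 in 0. With all 4 libraries, the fits that called Mixl1, Msgn1 and Meox1 called between 14.9% and 30.5% of all tested genes. The fits of all 4 libraries that did not call them called between 0.603% and 1.13% of all tested genes. T, Evx1, Mixl1 and Msgn1 had negative and Meox1 positive fold changes in all 17, while Eomes ranged from −1.46 to −0.0060, the last corrected and without ATRA replicate 1. Against 1 member called lower and 0 higher, and 24 genes lower and 62 higher, the members lower were 2 with RLE factors (genes: 55 lower, 101 higher) and 2 with the fit that is not robust, chosen after seeing the data (36 and 74), and 2 with edgeR's bias-adjusted method, likewise chosen (58 and 103). They were 5 with DESeq2 (genes 2573 and 1777) and 5 with no filter (1991 and 816), each with 1 higher. With the GC correction they were 4, with 1 higher (genes 1119 and 1263). The numbers in the titles are not known to mark shared cultures, and deviations of same-numbered libraries correlated at 0.183 over 2 pairs. With the replicate block 5 members were lower and 1 higher (genes 2975 and 1237), and with block and GC correction 4 and 1 (genes 1453 and 1484). With a single library left out, between 2 and 5 members were lower and between 0 and 1 higher, and between 45 and 5738 genes were lower and between 37 and 5214 higher. The lone library of a group is then assumed to vary like the other group. Corrected and without ATRA replicate 1, 3 members were lower and 3 higher (genes 3550 and 3848), and Mesp2 (2.30) and Hand1 (1.93) turned to called rises. Corrected and without ATRA replicate 2, 5 were lower and 1 higher (genes 2740 and 2670), and corrected without control replicate 1 or 2 T was the 1 member called (genes 17 and 50, or 19 and 52). Without ATRA replicate 1 or 2, Tbx6 was at −2.82 and −0.59 and Evx1 at −8.99 and −5.27. The ratio of Mesp1 was between 0.157 and 1.34 with single libraries left out, and without ATRA replicate 2 it has no value since 0 counts remain. The cause of these moves was not tested. Depth limits Mesp1, with 8 reads in all.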
